A study of Mus musculus with 10 samples.

Results

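The interferon-stimulated genes described here are 46 mouse genes that type I or type II interferon is known to induce, together with the receptor subunits and transcription factors that carry the signal. They were chosen by name, and all 46 were found among the 25232 genes of the table. RNA was sequenced from the spinal cord of 5 wild type (WT) and 5 *SOD1 G93A* female mice at 90 days of age. The labels give the strain as C57BL/6 and the tissue as spinal cord, and the methods name a C57BL/6J background and the lumbar region. The *SOD1 G93A* mice carry a high copy number of a human *SOD1* transgene with the G93A substitution, driven by the human gene's own promoter, and the WT mice were their littermates without it. The values used are 1 mean per gene over all 10 libraries, so the levels below are those of both genotypes together. No value of a single mouse was analysed here for the members, no spread between mice is known, and no difference between the genotypes was tested.

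Type I interferons bind a receptor made of IFNAR1 and IFNAR2, whose kinases JAK1 and TYK2 activate STAT proteins. STAT2 joins another STAT and IRF9 in a complex that binds the interferon-stimulated response element in the promoters of antiviral genes, whereas interferon gamma acts mainly through the gamma-activated site. In the central nervous system microglia, astrocytes, neurons and endothelial cells all respond to interferon, and many of the induced proteins sense viral RNA, block its translation or restrict the entry and assembly of viruses.

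The deposited value of a gene is its base mean, here named the mean normalised read count, which is the mean over the libraries of read counts divided by a size factor that corrects for depth. Since a long transcript yields more reads, levels of single genes were compared after division by the length of the longest transcript, as normalised reads per kilobase, and the mean normalised read count is given as deposited. The mean normalised read counts of the whole table summed to 22158933, and the members made up 0.0485% of that sum. Each interval below is an exact Poisson 95% interval for the number of reads behind the mean and covers counting error only. The members rested on at least 80 reads each over the 10 libraries, and their counting error, as 1 standard error, ran from 1.04% to 11.2%.

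The members were mostly of moderate or low abundance. Their median was 59.7 normalised reads per kilobase, beside 96.6 for the 19963 measured genes with a known length, where measured means a value above 0. On this scale 13 of the 46 lay above the median of measured genes, and only *Ifi27*, *Ifitm3* and *Lgals3bp* were above percentile 75. By the mean normalised read count, without length, 13 also lay above the median of 247.1, and 11 members were above both medians. With measured genes limited to a mean normalised read count of at least 1 or at least 10, 7 or 5 members lay above the median in place of 13. The highest and the lowest member per kilobase differed 181-fold. Of the 45 pairs of neighbours in the order of levels per kilobase, 29 had overlapping counting intervals. A low level in bulk tissue can come from few cells with much RNA or from many cells with little, and these cannot be told apart.

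**Figure D1:**
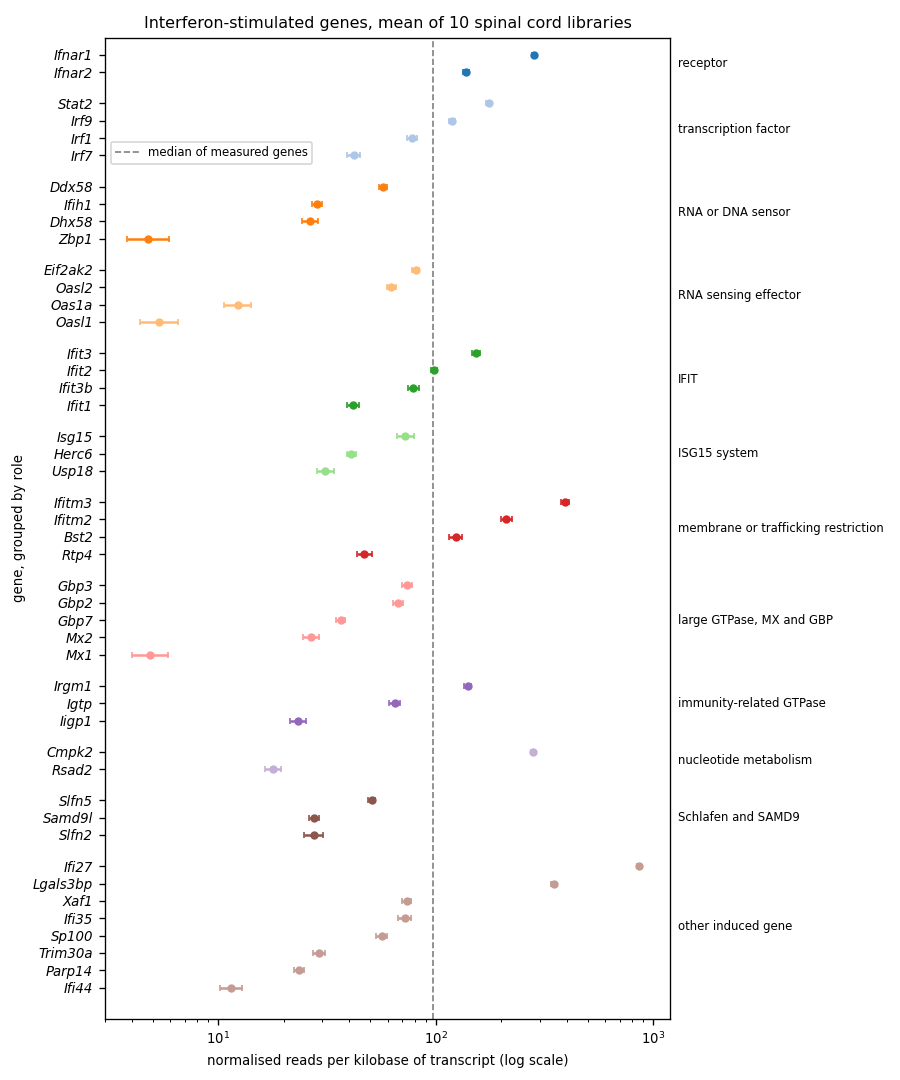
Level of each of the 46 members in normalised reads per kilobase of transcript (log axis), as the authors' mean over 10 libraries, grouped by role. Points are means, bars are 95% counting intervals, and the dashed line is the median of measured genes at 96.6; *Ifi27* lies farthest to the right at 861 and *Zbp1* farthest to the left at 4.77.

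Both subunits of the type I receptor were above the median level per kilobase of measured genes. *Ifnar1*, the subunit that binds TYK2, had a mean normalised read count of 1101 and 282 normalised reads per kilobase (interval 276 to 287), at percentile 71.7 of measured genes, or 185 over all exons. It lies at chr16:91485032-91510523. *Ifnar2*, the subunit that binds JAK1 and holds the ligand most tightly, had a mean normalised read count of 418.7 and lies near it, at chr16:91372783-91405589. Its level was 137 normalised reads per kilobase (133 to 142), at percentile 56.3. *Ifnar1* was thus 2.05 times as high as *Ifnar2* per kilobase, with a counting interval from 1.97 to 2.13. This order turned when the shortest transcript was used as the length, which raised *Ifnar2* to 381.

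Among the 4 transcription factors, *Stat2* and *Irf9*, which act in 1 complex, were higher per kilobase than *Irf1* and *Irf7*. *Stat2*, the signal carrier specific to type I and III interferon, had a mean normalised read count of 769 and 175 normalised reads per kilobase (171 to 179), at percentile 61.3, and lies at chr10:128270498-128292853. *Irf9*, its DNA-binding partner, had a mean normalised read count of 351.1 and was at 119 per kilobase, which fell to 65.2 when all exons of the gene were counted as its length. *Irf1*, an activator with a strong response to interferon gamma, had a mean normalised read count of 166.3. *Irf7*, the factor that amplifies interferon alpha production, was the lowest of the group, with a mean normalised read count of 93.8 and 41.9 per kilobase (39.0 to 44.9), at percentile 38.6, or 24.8 over all exons. It lies at chr7:141263183-141266499.

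None of the 4 members that sense foreign nucleic acid reached the median of measured genes. *Ddx58*, which encodes RIG-I, the sensor of RNA with a 5′ triphosphate, had a mean normalised read count of 221.4 and 57.1 normalised reads per kilobase (54.6 to 59.8), at percentile 42.4, or 31.4 over all exons, and lies at chr4:40203777-40239825. *Ifih1*, the MDA5 sensor of long double-stranded RNA, had a mean normalised read count of 155.3. *Dhx58*, the related LGP2 protein that modulates both, had 64.0. *Zbp1*, a sensor of Z-form nucleic acid that can start necroptosis, was the lowest of all members per kilobase, at 4.77 (3.78 to 5.93), at percentile 20.7. Its mean normalised read count was 9.48, which corresponds to between 80 and 109 reads over all 10 libraries, and it lies at chr2:173206612-173218959. With its shortest transcript the level of *Zbp1* was 12.3 per kilobase, and *Mx1* was then the lowest member, whereas over all exons *Zbp1* was at 2.69 and stayed the lowest.

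The effectors that act on double-stranded RNA were spread over a wide range. *Eif2ak2*, the kinase PKR that halts translation, had a mean normalised read count of 349.3 and 81.0 normalised reads per kilobase (78.1 to 84.0), at percentile 47.3, and lies at chr17:78850504-78882572. *Oasl2*, a 2′-5′-oligoadenylate synthetase-like protein, had a mean normalised read count of 194.6, and its neighbour *Oasl1*, which in mice represses the translation of *Irf7*, had 11.7. *Oasl1* was at 5.35 per kilobase (4.35 to 6.52), at percentile 21.6, and lies at chr5:114923143-114937911. Per kilobase *Oasl2* was 11.6 times as high as *Oasl1* (9.50 to 14.3), and the 2 genes lie within 40986 bases. Over all exons the ratio was 6.82. *Oas1a*, a synthetase of 2′-5′-oligoadenylates, had a mean normalised read count of 23.2 and lies at chr5:120896256-120907544. Its level was 12.3 per kilobase (10.7 to 14.2), at percentile 27.3, but 40.9% of its 100-base windows also occur in another gene, its close copy *Oas1g*. The authors counted uniquely mapped reads only, and with windows counted in place of bases the level of *Oas1a* was 13.0 over all windows and 22.0 over the unshared ones.

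The IFIT proteins bind viral RNA and block its translation, and the 4 IFIT genes among the members lie in 1 cluster at chr19:34550550-34650009. *Ifit3* was the highest, with a mean normalised read count of 267.1 and 153 normalised reads per kilobase (147 to 160), at percentile 58.4. *Ifit2*, which also promotes apoptosis, had a mean normalised read count of 374.0 but a longer transcript, and was at 97.9 per kilobase. *Ifit1*, which binds RNA that lacks cap methylation, was the lowest, with a mean normalised read count of 110.2 and 41.5 per kilobase (38.9 to 44.3), at percentile 38.5, and lies at chr19:34640889-34650009. *Ifit2* was 2.36 times as high as *Ifit1* per kilobase (2.19 to 2.54). *Ifit3b*, the close copy of *Ifit3*, lies at chr19:34607530-34613403, had a mean normalised read count of 157.7 and was at 78.9 per kilobase (74.7 to 83.2), at percentile 46.9. *Ifit3* itself lies at chr19:34583119-34588982. Of the 100-base windows, 31.7% of those of *Ifit3* and 27.4% of those of *Ifit3b* occur in the other gene. *Ifit3* was 1.94 times as high as *Ifit3b* per kilobase (1.81 to 2.08), and 2.08 times as high over unshared windows. With windows counted in place of bases, their levels were 237 and 114 over the unshared ones and 162 and 83.0 over all.

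The genes of the ISG15 system attach this ubiquitin-like protein to targets or remove it. *Isg15* had a mean normalised read count of 54.7, but its transcript is short, and it was the highest of the 3 per kilobase at 72.4 (65.9 to 79.3), at percentile 45.6. It lies at chr4:156199424-156200818. *Usp18*, the protease that removes ISG15 and also restrains signalling at IFNAR2, was the lowest, with a mean normalised read count of 54.9 and 31.0 per kilobase (28.3 to 34.0), at percentile 35.3, or 19.7 over all exons, and lies at chr6:121245906-121270917. *Herc6*, the main mouse ligase for ISG15, had a mean normalised read count of 195.1 and was at 40.9 per kilobase (39.0 to 42.9), at percentile 38.3, and lies at chr6:57580992-57665136. It shares 20.9% of its windows with *Gm45193*, a gene annotated at the same place, and with all exons counted its level was lower by 1.95 times.

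Proteins that restrict viruses at membranes were the group with the highest median among roles of 3 or more members, at 167 normalised reads per kilobase. *Ifitm3*, which blocks the fusion of viruses in endosomes, had a mean normalised read count of 267.2 and 394 per kilobase (378 to 411), at percentile 78.7, and lies at chr7:141009590-141010744. *Ifitm2*, its relative at chr7:140954837-140959686, had a mean normalised read count of 138.3 and 211 per kilobase (199 to 224), at percentile 65.2. *Ifitm3* was therefore 1.87 times as high per kilobase (1.74 to 2.00). However, 34.9% of the windows of *Ifitm2* are shared, mostly with *Gm45717* at the same place, and 4.68% occur in genes elsewhere. Whether reads were lost where *Ifitm2* and *Gm45717* overlap was not tested. With unshared windows counted in place of bases the levels were 382 for *Ifitm2* and 462 for *Ifitm3*. Since *Ifitm3* has no shared window, its rise from 394 is due to the use of windows alone. *Bst2*, the tetherin that holds budding virus at the cell surface, had a mean normalised read count of 98.1. *Rtp4*, a chaperone of G protein-coupled receptors, was the lowest, with a mean normalised read count of 73.8 and 46.9 per kilobase (43.3 to 50.7), at percentile 39.9, and lies at chr16:23520219-23614222.

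The large GTPases of the MX and GBP families were all below the median of measured genes. The GBP proteins coat the vacuoles of intracellular pathogens, and *Gbp3* was the highest of the 5, with a mean normalised read count of 197.7 and 73.7 normalised reads per kilobase (70.2 to 77.3), at percentile 45.9, at chr3:142560016-142573213. Its neighbours *Gbp2* and *Gbp7* had mean normalised read counts of 167.8 and 204.8. Per kilobase *Gbp3* was 1.11 times as high as *Gbp2* (1.03 to 1.19) and 2.02 times as high as *Gbp7* (1.89 to 2.16). Over all exons the order of *Gbp3* and *Gbp2* turned, at 60.5 and 66.7. *Mx2* had a mean normalised read count of 64.8. *Mx1*, a nuclear inhibitor of influenza virus that is nonfunctional through a deletion in C57BL/6 and most other laboratory strains, had 13.1. *Mx1* was at 4.86 per kilobase (3.99 to 5.86), at percentile 20.9, at chr16:97447035-97462906, and *Mx2* was 5.51 times as high (4.49 to 6.77). The counting interval of *Mx1* overlapped that of *Zbp1*.

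Among the immunity-related GTPases, which also act at pathogen vacuoles, *Irgm1* was the highest. This regulator of the other members of its family and of autophagy had a mean normalised read count of 316.1 and 140 normalised reads per kilobase (135 to 145), at percentile 56.6, and lies at chr11:48865245-48871420. Its level fell to 54.4 when all exons of the gene made up the length, which put it below that of *Igtp*. *Igtp*, also named *Irgm3*, had a mean normalised read count of 130.9. *Iigp1*, an effector that disrupts the vacuole membrane, had a mean normalised read count of 72.6 and 23.3 per kilobase (21.4 to 25.2), at percentile 32.4, or 12.5 over all exons, and lies at chr18:60373616-60392634.

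*Cmpk2* and *Rsad2* are neighbours at chr12:26442743-26479837 and act in the same metabolism, since CMPK2 is a mitochondrial nucleotide kinase that supplies CTP and RSAD2, or viperin, converts CTP into a chain terminator of viral RNA. Their levels were far apart. *Cmpk2*, at chr12:26469117-26479837, had a mean normalised read count of 894.3 and 279 normalised reads per kilobase (273 to 286), at percentile 71.6. *Rsad2*, at chr12:26442743-26456452, had a mean normalised read count of 67.6 and 17.9 per kilobase (16.4 to 19.4), at percentile 30.2. The difference was 15.6-fold per kilobase (14.4 to 17.0), the largest between neighbouring members.

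In the Schlafen and SAMD9 group, *Slfn5* was the highest, with a mean normalised read count of 302.6 and 50.6 normalised reads per kilobase (48.7 to 52.6), at percentile 40.9, at chr11:82951349-82964850. *Slfn2*, which is needed for the quiescence of T cells, lies in the same cluster at chr11:83065112-83070678 and had a mean normalised read count of 45.6. It was at 27.4 per kilobase (24.7 to 30.3), at percentile 34.1, and *Slfn5* was 1.85 times as high (1.66 to 2.06). *Samd9l*, a restriction factor and growth suppressor, had a mean normalised read count of 147.0, and its interval per kilobase overlapped that of *Slfn2*.

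The remaining 8 induced genes held both abundant and scarce transcripts. *Ifi27*, a small mitochondrial protein, was the highest member of all per kilobase, at 861 (841 to 882), at percentile 90.9, with a mean normalised read count of 841.6, and lies at chr12:103434189-103440245. It stayed the highest under the other lengths, with 574 over all exons and 1189 with its shortest transcript. *Lgals3bp*, a secreted galectin-binding glycoprotein, had a mean normalised read count of 810.6. *Xaf1*, an antagonist of the apoptosis inhibitor XIAP, had a mean normalised read count of 190.4, and its level per kilobase of 73.3 became 293 with the shortest transcript and 40.6 over all exons. *Parp14*, a mono-ADP-ribosyltransferase, had a mean normalised read count of 173.9, *Sp100*, a component of nuclear bodies, had 152.4, *Trim30a* had 109.5 and *Ifi35* had 97.9. *Ifi44* was the lowest, with a mean normalised read count of 33.3 and 11.4 per kilobase (10.1 to 12.9), at percentile 26.8, or 5.44 over all exons, at chr3:151730922-151749910.

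Some members lie near each other, and how often other genes do so was not counted. The 46 genes lie on 16 chromosomes, with 9 of them on chromosome 11. Members at most 200000 bases apart formed 8 clusters that hold 19 members. The highest and the lowest member of a cluster differed per kilobase from 1.85-fold, between *Slfn5* and *Slfn2*, to 15.6-fold, between *Cmpk2* and *Rsad2*. The lower end depended on the length used. Over unshared windows *Ifitm3* was 1.21 times as high as *Ifitm2*. The ratio of *Ifnar1* to *Ifnar2* was 1.47 over all exons and 0.739 with the shortest transcript. No 100-base window in common with another gene was found for 23 of the 46, and 5 had over 20% of their windows in common. For 3 of these, *Oas1a*, *Ifit3* and *Ifit3b*, over 20% occurred in genes elsewhere. *Herc6* and *Ifitm2* shared theirs wholly or mostly with a gene annotated at the same place.

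The promoters were searched for the core letters of the interferon-stimulated response element, GAAANNGAA, on both strands of the 300 bases from 250 before to 50 after each annotated start. Promoter entries were matched for 37 of the 46 members. *Mx1*, *Mx2*, *Zbp1*, *Rtp4*, *Ifi27*, *Usp18*, *Iigp1*, *Parp14* and *Dhx58* had none in the table used. The letters were in the promoters of 22 of the 37, or 59.5%, beside 9.76% of all 27025 genes with an entry. With the same letters followed by another A, they were in 20 of the 37, or 54.1%, beside 3.99% of all genes. The letters of the gamma-activated site, TTCNNNGAA, were in 11 of the 37, or 29.7%, beside 9.55% of all genes, and 6 members held both motifs. Among the 56 other interferon pathway genes with an entry, which are described below, the 3 shares were 41.1%, 37.5% and 30.4% in the same order. The 22 members were *Bst2*, *Ddx58*, *Eif2ak2*, *Gbp2*, *Gbp3*, *Gbp7*, *Ifi44*, *Ifih1*, *Ifit1*, *Ifit3*, *Ifit3b*, *Ifitm2*, *Ifitm3*, *Igtp*, *Irgm1*, *Isg15*, *Oas1a*, *Rsad2*, *Samd9l*, *Slfn5*, *Stat2* and *Trim30a*. A match describes the letters only and is no measured binding site.

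**Figure D2:**
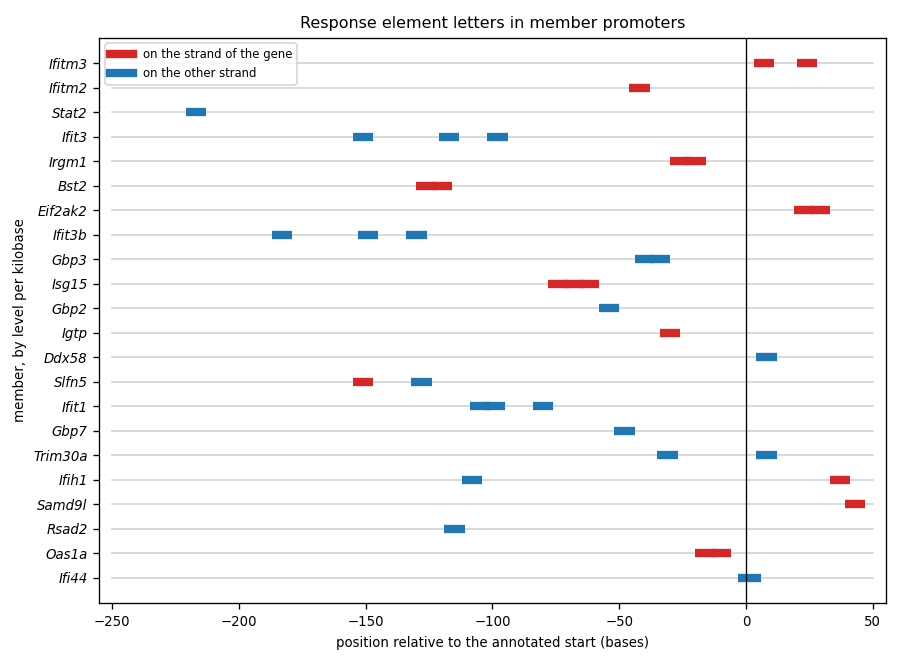
Position of the core letters GAAANNGAA in the promoter entries of the 22 members that hold them, in bases relative to the annotated start (horizontal axis), with members ordered by level per kilobase. Bars are matches, red on the strand of the gene and blue on the other strand; 30 of the 39 matches end before the start.

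The 39 matches had a median first base of -58, counted from the start. Of them, 25, or 64.1%, lay within the 150 bases before the start, whereas 45.2% of the 3038 matches in all promoter entries did. They were on the strand of the gene 18 times and on the other strand 21 times. The levels of members with and without the letters overlapped. The median was 65.7 normalised reads per kilobase, in a range from 11.4 to 394, for the 22 with them, and 73.3, from 5.35 to 348, for the 15 without.

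The members with the letters and the highest levels per kilobase were *Ifitm3*, *Ifitm2* and *Stat2*, and their sequences are shown because they place the letters at different distances from the start. In *Ifitm3* both matches lie after the start, in the first exon, at bases 3 to 11 and 20 to 28. The stretches are at chr7:141010724-141010752 and chr7:141010707-141010735 on the minus strand of GRCm38, with the matched letters in capitals.
Ifitm3, first match: caaaattcagGAAAAGGAAacttctgaga
Ifitm3, second match: aaacttctgaGAAACCGAAactgccgcag
In *Ifitm2* the match is at bases -46 to -38, in a stretch at chr7:140955989-140956017 on the minus strand, outside the GENCODE exons but within the gene as RefSeq places it. In *Stat2* the match is at bases -221 to -213 on the other strand, so that its complement appears in capitals within the 250 bases before the start, at chr10:128270248-128270497 on the plus strand, outside GENCODE exons and outside the gene as RefSeq places it.
Ifitm2: ccaccaacagGAAAAGGAAattgctagag
Stat2: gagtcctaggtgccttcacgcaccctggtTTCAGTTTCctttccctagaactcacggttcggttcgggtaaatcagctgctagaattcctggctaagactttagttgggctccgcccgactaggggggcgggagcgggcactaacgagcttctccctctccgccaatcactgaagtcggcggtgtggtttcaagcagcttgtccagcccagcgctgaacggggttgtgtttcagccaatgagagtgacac

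In 13 members the letters occurred more than once over all promoter entries of the gene, with up to 3 matches. *Trim30a* is among the 13 through separate entries, with 1 match in each. The stretches that follow, chosen after the values were seen, show overlapping matches in *Isg15*, *Bst2*, *Gbp3* and *Ifit1*, each written in the direction of the letters with 10 bases on either side. None of the 4 overlaps an exon of the GENCODE annotation, but the first 9 bases of the *Gbp3* stretch as written lie within the gene as RefSeq places it. *Isg15* held 3 overlapping matches at bases -78 to -58, at chr4:156200866-156200906 on the minus strand, the longest run of the members. *Bst2* held 2 at bases -130 to -116, at chr8:71537578-71537612 on the minus strand. *Gbp3* held 2 at bases -44 to -30, at chr3:142559990-142560024 on the minus strand, opposite to the gene. *Ifit1* held 2 at bases -109 to -95, at chr19:34640770-34640804 on the minus strand, also opposite to the gene.
Isg15: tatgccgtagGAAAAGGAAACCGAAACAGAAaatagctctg
Bst2: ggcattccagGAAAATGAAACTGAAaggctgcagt
Gbp3: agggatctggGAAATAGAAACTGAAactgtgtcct
Ifit1: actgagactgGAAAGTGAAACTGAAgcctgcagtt

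The copies *Ifit3* and *Ifit3b* shared their promoter letters as well as their transcript windows. All 3 stretches around the matches of *Ifit3* were found base for base in *Ifit3b*, 32 bases farther from its annotated start. The first, at bases -155 to -147 of *Ifit3*, is at chr19:34583364-34583392, and its counterpart, at bases -187 to -179 of *Ifit3b*, is at chr19:34607760-34607788, both on the minus strand. They are outside GENCODE exons but within the genes as RefSeq places them.
Ifit3 and Ifit3b, first match: accagaagagGAAAGTGAAacttaccact
Ifit3 and Ifit3b, second match: gaggaaagtaGAAACTGAAacagacttaa
Ifit3 and Ifit3b, last match: cagtgtttgtGAAAGGGAAgaggaaagta

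The interferons themselves were at or near 0, far below these members. Of 21 ligand genes, 14 were listed at 0, and the 7 others had mean normalised read counts of at most 0.716. Such low values could be turned back into reads, because the 10 most common values above 0 were taken as 1 read of 1 library each. The sizes of these steps gave size factors from 0.840 to 1.15, without showing which library is which. All 1772 genes with a value above 0 and under 0.5 had exactly 1 solution in whole reads, within a tolerance of 5e-10 for each possible read, the rounding of the file. Of these 1772, 716 held 1 read in 1 library, so they gave the steps themselves and had a solution by construction. *Ifnb1*, the interferon beta gene, rested on 1 read in 1 library. Of the 13 numbered *Ifna* genes, 11 were listed at 0 and *Ifna2* and *Ifna15* had 1 read each. *Ifng*, the type II ligand, had 3 reads in 2 libraries, and so did not exceed the 3 reads that a count of 0 allows. *Ifnz*, interferon zeta, was the highest ligand, with 7 reads in 6 libraries, and shares 62.2% of its windows with other genes. A value of 0 need not mean absence of RNA, since 9 of 10 alpha and beta globin genes of red blood cells, *Hbb-bs* and *Hba-a1* among them, were also listed at 0. Of their 100-base windows, *Hbb-bs* and *Hba-a1* share 62.6% and 56.5% with another gene and the numbered *Ifna* genes 0% to 16.6%. With 50-base windows these shares were 65.8% and 67.5% for the globin genes and 6.45% to 67.4% for the numbered *Ifna* genes. What the shared windows contribute to the values of 0 was not tested.

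**Figure D3:**
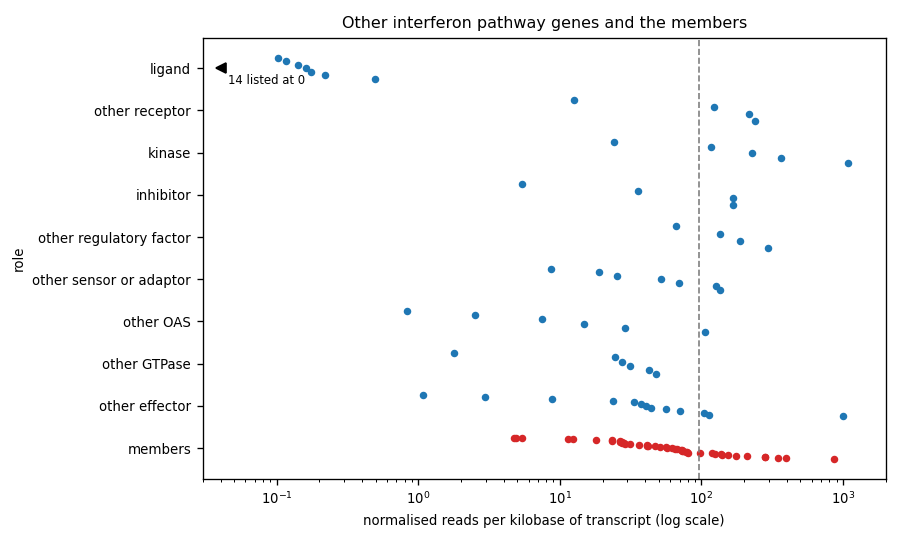
Levels of the other interferon pathway genes with a known length by role (blue) and of the 46 members (red) in normalised reads per kilobase of transcript (log axis), as the authors' mean over 10 libraries. The triangle stands for 14 ligands listed at 0, the dashed line is the median of measured genes at 96.6, and every ligand above 0 lies to the left of every member.

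Of 71 other pathway genes, 57 were measured and 17 lay above the median mean normalised read count, none of them a ligand. With measured genes limited to those of at least 10, 9 lay above it. Among the 71, 11 of the 17 receptors, kinases, inhibitors and regulatory factors lay above the median of 247.1, and this group ranged from 5.43 to 1079 normalised reads per kilobase. *Jak1*, the kinase that serves all interferon receptors, was the highest of the kinases at 1079 normalised reads per kilobase, and *Ikbke*, a kinase that activates IRF3 and IRF7, the lowest at 24.1. Of the receptors for other interferons, *Ifngr1* was the highest at 240 and *Ifnlr1*, for type III interferon, the lowest at 12.6. Among the inhibitors *Ptpn2*, a phosphatase of JAK1 and STAT proteins, was at 168 and *Socs1*, which is itself induced by interferon, at 5.43. Of the other regulatory factors, *Irf3* was at 296 and *Irf8*, a factor of microglia, at 65.8. Of the other sensors and adaptors, *Mavs*, the mitochondrial adaptor of RIG-I and MDA5, was at 135 and the DNA sensor *Cgas* at 8.58.

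The other induced genes ranged from 0.835 to 1002 normalised reads per kilobase, wider at both ends than the members. Without the ligands, 49 of the 50 other pathway genes had a known length, *Sting1* being the exception, and their median was 43.9 normalised reads per kilobase, beside 59.7 for the members. *Adar*, an RNA-editing enzyme with an interferon-inducible form, was the highest of the other effectors at 1002, and *Slfn1* the lowest at 1.09. Among the other OAS genes *Oas3* was the lowest at 0.835. Of the other GTPases *Irgm2* was at 48.0 and *Gbp8* at 1.78.

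The tissue label was checked against cell type markers. Median levels per kilobase were 10485 for 5 oligodendrocyte markers, 2417 for 5 astrocyte markers, 1270 for 5 neuronal markers and 563 for 6 microglial markers, each above the members' median of 59.7. The motor neuron genes *Slc18a3*, *Chat*, *Isl1* and *Mnx1* were at 485, 257, 18.1 and 16.6 per kilobase. The mean normalised read counts of lymphocyte markers were at most 2.73 for the 3 T cell genes, 1.40 for the 2 NK cell genes and 10.6 for the 3 B cell genes. The highest of them, *Cd79a*, was at 7.30 per kilobase, above the members *Zbp1*, *Mx1* and *Oasl1*. *Acta1*, of skeletal muscle, had a mean normalised read count of 251.1. Which cells gave the members' reads was not tested.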

How the data were processed

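RNA of 10 spinal cord samples was sequenced as paired reads from stranded libraries. The authors removed short and low-quality reads with Fastp, aligned the rest to mm10 with HISAT2 2.1.0, assigned those with a unique position to genes with featureCounts 2.0.2 and normalised the counts with DESeq2; versions are from the submitters' processing notes. The gene annotation and the strand setting of the counting are not given in the sources used here. The signal deposited by the authors is the base mean, a mean over all libraries of counts divided by size factors. The table's other columns hold the authors' own comparison of the genotypes (log2 fold change, standard error, Wald statistic, p-value and adjusted p-value) and were not used. No test between groups was therefore run, and the total depth of each library is unknown.

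The members and lists were chosen with earlier results of these data known. Symbols were matched to RefSeq (GRCm38.p6), which held 99.2% of the table's symbols and all members. Transcript lengths came from GENCODE M21 transcripts paired with a RefSeq transcript, in place of RefSeq transcripts themselves, which were planned. Windows of 100 bases, the read length, were searched in all GENCODE transcripts on both strands. Promoters were taken from RefSeq (GRCm38.p6), and in 30 of the 43 entries of members the first 20 transcribed bases were found in a transcript of the gene. The counting intervals use the smallest number of reads that the size factors allow. *Cgas* and *Sting1* were matched through synonyms. Each member was named with its mean normalised read count, and levels per kilobase, percentiles and positions were given for the highest and lowest member of each role and for those with over 20% shared windows. Of the other pathway genes the highest and lowest measured gene of each role were named, except where a gene is not reported here. The recovery of reads was tested on simulated data. The drawn reads were always among the solutions, but at the highest number of reads drawn they were not always the only solution. Python 3.11.15, pandas 2.3.3, numpy 2.4.6 and scipy 1.17.1 were used.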

Additional observations from a re-analysis of the deposited data

How the results depend on the processing

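No paired analysis was possible because no value of a single library was available for a test. All 46 members were also found with case ignored and synonyms. With measured genes defined by a mean normalised read count of at least 1 or at least 10, the median rose, and 7 or 5 members lay above it in place of 13; for the other pathway genes the counts were 13 and 9 in place of 17. The members' median of 59.7 normalised reads per kilobase became 41.1 over all exons, 63.5 with the shortest transcript and 63.0 over unshared windows, changes that follow from the length used. Counting all windows in place of bases, a setting chosen after seeing the data, gave 61.5. Single levels moved by over 1.5 times for 20 of the 46 members under at least 1 of these lengths, and all 15 such moves over all exons were downward. With windows of 200 bases 1 member, *Oas1a*, had over 20% shared windows in place of 5, and with windows of 50 bases 5 did. The letters of the gamma-activated site were in 11 promoters in place of the 22 with the response element, being another motif. A tolerance 10 times wider left 10 of 12 low genes of the lists with a single solution in whole reads. Leaving out mice could not be tried. The counting error (1 standard error) of a member was at most 11.2%, and 29 of 45 neighbouring pairs of members had overlapping counting intervals. A count of 0 over all libraries allows up to 3 expected reads. A gene at 3 reads or fewer is within this bound, so it cannot be called higher than a gene listed at 0.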
